A study of Mus musculus with 2 samples.

Results

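The Notch genes described here are 10 of the 43346 gene rows in the tables: the receptor genes Notch1, Notch2 and Notch3, the ligand genes Dll1, Dll3 and Jag1, the target genes Hes1, Hes5 and Hey1, and Hes6. They were chosen by name, as members of one signalling pathway, and each symbol was matched to its row by gene ID. RNA came from forebrains of B6NCrl mouse embryos of both sexes at embryonic day 11.5, an age at which dividing progenitors make up much of the forebrain wall and neurogenesis has begun. Replicate 1 pooled 109 embryos and replicate 2 pooled 88, and no treatment or genetic change is named in the labels. Each library was made from total RNA over 200 nucleotides long, in an amount equal to that of 1 cell, by a SmartSeq protocol, which copies RNA into cDNA and amplifies it. Although the labels call the assay single cell RNA-seq, pooled tissue was the input, and each library is 1 bulk sample of one group.

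Notch receptors sit in the cell membrane and bind Delta-like or Jagged ligands on a neighbouring cell. Binding leads to cleavage of the receptor, and its freed intracellular part enters the nucleus, joins the DNA-binding protein RBPJ and switches on Hes and Hey genes, whose products are transcriptional repressors. In the embryonic brain this exchange between neighbours keeps some cells as progenitors, because Hes proteins repress proneural genes such as Neurog2, while cells high in proneural genes raise Dll1 and signal to the cells around them.

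A promoter and stretches of a pair of transcripts, written as cDNA, bear on the values below. The first is the Hes5 promoter, from RefSeq on GRCm38.p6, as chr4:154960673-154960922 on the plus strand, which is the 250 bases before the gene start. Capitals mark matches to TGGGAA, the core letters of the site that RBPJ binds, read on either strand.
Hes5 promoter: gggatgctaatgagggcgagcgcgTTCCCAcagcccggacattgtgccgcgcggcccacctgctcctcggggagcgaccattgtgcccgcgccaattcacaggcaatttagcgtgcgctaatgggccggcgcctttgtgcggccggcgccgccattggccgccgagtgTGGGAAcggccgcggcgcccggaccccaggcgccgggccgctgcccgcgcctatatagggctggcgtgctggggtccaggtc
The others are pieces of short transcripts that hold bases of an intron and to which the deposited tables gave reads. They were read from GENCODE release M21 transcripts, whose assembly is GRCm38 (mm10), both on the minus strand, and are printed 5′ to 3′. Capitals mark bases that lie in an intron of the full-length transcript, and lower case marks its exons.
Notch1-207, chr2:26462484-26462747: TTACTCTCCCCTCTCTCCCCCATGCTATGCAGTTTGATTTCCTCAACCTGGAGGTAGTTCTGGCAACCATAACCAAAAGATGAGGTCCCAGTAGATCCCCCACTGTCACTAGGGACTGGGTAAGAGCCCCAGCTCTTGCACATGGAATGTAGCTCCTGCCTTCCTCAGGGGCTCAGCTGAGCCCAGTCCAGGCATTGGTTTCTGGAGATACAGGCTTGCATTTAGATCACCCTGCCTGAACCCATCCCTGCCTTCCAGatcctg
Dll1-204, chr17:15368030-15368157: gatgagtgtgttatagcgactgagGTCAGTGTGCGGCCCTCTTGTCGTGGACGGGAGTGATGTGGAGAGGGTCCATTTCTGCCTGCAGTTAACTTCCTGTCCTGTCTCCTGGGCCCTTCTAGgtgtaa
The Notch1-207 bases lie between exons 31 and 32 of the 34 exons of Notch1-201, and those of Dll1-204 between exons 10 and 11 of the 11 exons of Dll1-201.

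Expected counts, which are estimated reads per gene, summed to 28639678 for replicate 1 and 28948074 for replicate 2, of which 27395002 and 27977544 fell on gene rows. TPM (transcripts per 1000000 transcripts) also divides by effective length, so it alone is used here to set one gene against another. Detection was set at 1 TPM or more. Of the 43346 gene rows, 16.6% were detected in both libraries, and 30.4% of the 21474 protein-coding rows were. A difference is replicate 1 minus replicate 2 of log2(TPM + 1), a scale that understates differences of low genes, and a gene was counted as past 2-fold where its mean TPM was at least 10 and the difference was at least 1 in size. Of the 7680 genes at or above that mean, 51.3% were past 2-fold. Replicate 1 was higher for 24.7% of the 7680 and replicate 2 for 26.6%. Of the 38 ERCC spike-ins (RNAs added in known amounts) with a mean TPM of at least 10, 19 were past 2-fold. The share was 75.6% among genes with a mean TPM from 10 to under 20, 56.1% from 20 to under 50, 42.9% from 50 to under 100 and 28.9% from 100 to under 200. With 1 library per pool a difference has no replicate check, so no p-value is given. Intervals are 95% exact intervals for a ratio of CPM, which is counts per 1000000 counts on gene rows. They cover counting error only, since amplified copies of one molecule cannot be told from separate molecules without molecular identifiers.

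Transcripts of the Notch pathway were present in E11.5 forebrain at each step, from receptor and ligand to target. In both libraries 8 of the 10 genes were detected, against 16.6% of all gene rows and 30.4% of protein-coding rows. Jag1 was detected in replicate 2 alone and Dll3 in neither. By mean TPM the order was Hes6, Hes5, Notch1, Dll1, Hey1, Notch2, Notch3, Hes1, Jag1 and Dll3. Of the 9 neighbouring pairs in that order, 4 had separate ranges over the libraries: Dll1 above Hey1, Notch2 above Notch3, Hes1 above Jag1, and Jag1 above Dll3. The other neighbours overlapped, and Hes5 with Notch1 and Notch1 with Dll1 stood in opposite order in the 2 libraries. In tissue RNA, fewer cells of a type and less RNA per cell cannot be told apart.

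**Figure D1:**
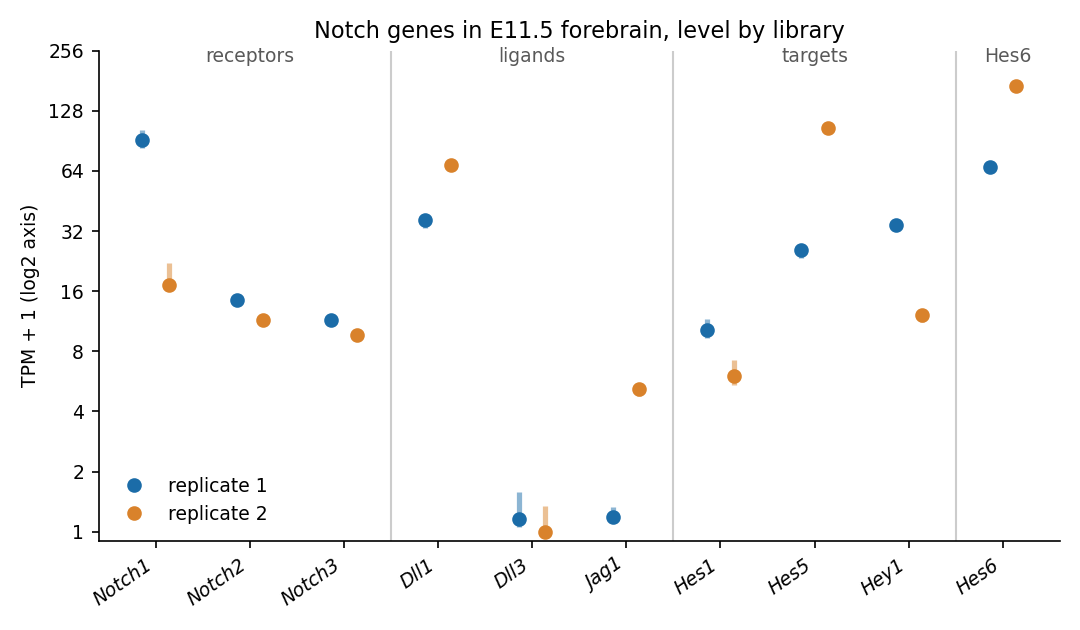
TPM + 1 on a log2 axis for the 10 genes, by role, with a point for each library (replicate 1 blue, replicate 2 orange) and a bar for the interval deposited with it. Notch2 and Notch3 lie close together in both libraries, while Notch1 and Hey1 are higher in replicate 1 and Hes5, Hes6, Dll1 and Jag1 in replicate 2.

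All 3 receptor genes were detected in both libraries, and Notch1 had the highest TPM of them in each. Notch1 (ENSMUSG00000026923.11, chromosome 2, 26457903 to 26516663 on mm10, minus strand), the receptor best known from neural progenitors, had 90.1 TPM in replicate 1 and 16.3 TPM in replicate 2. Its expected counts were 8483 and 3388. The levels lie far apart, with a mean of 53.2 ± 52.2 TPM (SD, n = 2), a log2 TPM difference of 2.4 and a CPM ratio of 2.56 (2.46 to 2.66). Notch1 was therefore past 2-fold, higher in replicate 1, in TPM and in CPM. The interval deposited with the TPM of Notch1 ran from 82.4 to 101 in replicate 1. In replicate 2 it ran from 16.8 to 21.3, so the deposited TPM of 16.3 lay below its own interval.

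Most of the distance between the 5.54-fold TPM ratio of Notch1 and its 2.56-fold CPM ratio lay in short transcripts. In replicate 1, transcripts of Notch1 not annotated as protein-coding took 358 counts, 4.22% of the counts of the gene, but 57.1% of its TPM, because TPM divides by length. In replicate 2 they took 0 counts. The full-length transcript Notch1-201 (9488 bases) had 8125 counts and 38.7 TPM in replicate 1, against 3388 counts and 16.3 TPM in replicate 2. Notch1-207 (434 bases), whose intronic stretch is printed above and of which 258 bases lie outside the exons of Notch1-201, had 234 counts and 31.2 TPM in replicate 1 and none in replicate 2. Notch1-202 added 14.9 TPM and Notch1-203 added 5.27 TPM in replicate 1. Of their 406 and 284 bases only 32 and 39 lie outside the exons of Notch1-201. The interval deposited for Notch1-203 in replicate 1 ran from 0 to 9.86 TPM. Over protein-coding transcripts alone, Notch1 stood at 38.7 and 16.3 TPM, a ratio of 2.38 and a log2 difference of 1.20, still past 2-fold.

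Notch1 also overlaps genes on the opposite strand, and the use of strand in counting is not given in the sources used here, so reads of the overlapping genes may not be separable. The bounds of 0610009E02Rik overlap Notch1 over 1488 bases at its 3′ end, and its row held 0 counts in replicate 1 against 1632 in replicate 2. Gm13568 overlaps Notch1 over 414 bases there and held 229 and 753 counts. Both rows were higher in replicate 2, the library in which Notch1 was lower. With all their counts added to those of Notch1, the sums were 8712 and 5773 counts, the log2 CPM difference was 0.62, and Notch1 was no longer past 2-fold. Both genes also reach outside Notch1, as 0610009E02Rik runs from 26445696 to 26459390 and Gm13568 from 26457144 to 26458316. How many of their counts came from the overlap is not known, so the sums may hold reads from outside Notch1. The part of either feature in the difference of Notch1 was not tested.

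Notch2 and Notch3 were low and similar between the libraries. Notch2 (ENSMUSG00000027878.10, chromosome 3, 98013527 to 98150361, plus strand) had 13.4 and 10.5 TPM from 3125 and 2432 counts, a mean of 11.98 ± 2.04 TPM (SD, n = 2). Its log2 TPM difference was 0.32, and its CPM ratio was 1.31 (1.24 to 1.38). Notch3 (ENSMUSG00000038146.7, chromosome 17, 32120820 to 32166852, minus strand), a receptor known from mural cells of vessels as well as from neural progenitors, had 10.4 and 8.67 TPM from 1855 and 1528 counts. Its mean was 9.55 ± 1.25 TPM (SD, n = 2), its log2 TPM difference 0.24 and its CPM ratio 1.24 (1.16 to 1.33). Neither differed by as much as 2-fold, and the TPM ratio of Notch2 to Notch3 was 1.29 in replicate 1 and 1.22 in replicate 2. Notch2 lies in the range of means from 10 to under 20 TPM, where 75.6% of genes were past 2-fold, and Notch3 averaged just under 10 TPM and was not among those counted. Each of the pair had all its counts in a single annotated transcript.

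Summed over the receptor genes, the level was 114 TPM in replicate 1 and 35.5 TPM in replicate 2, of which Notch1 held 79.1% and 45.9%. Over protein-coding transcripts alone the sums were 62.5 and 35.5 TPM, and Notch1 held 61.9% and 45.9%. Notch1 was thus the largest part of receptor TPM in both libraries by either sum.

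**Figure D2:**
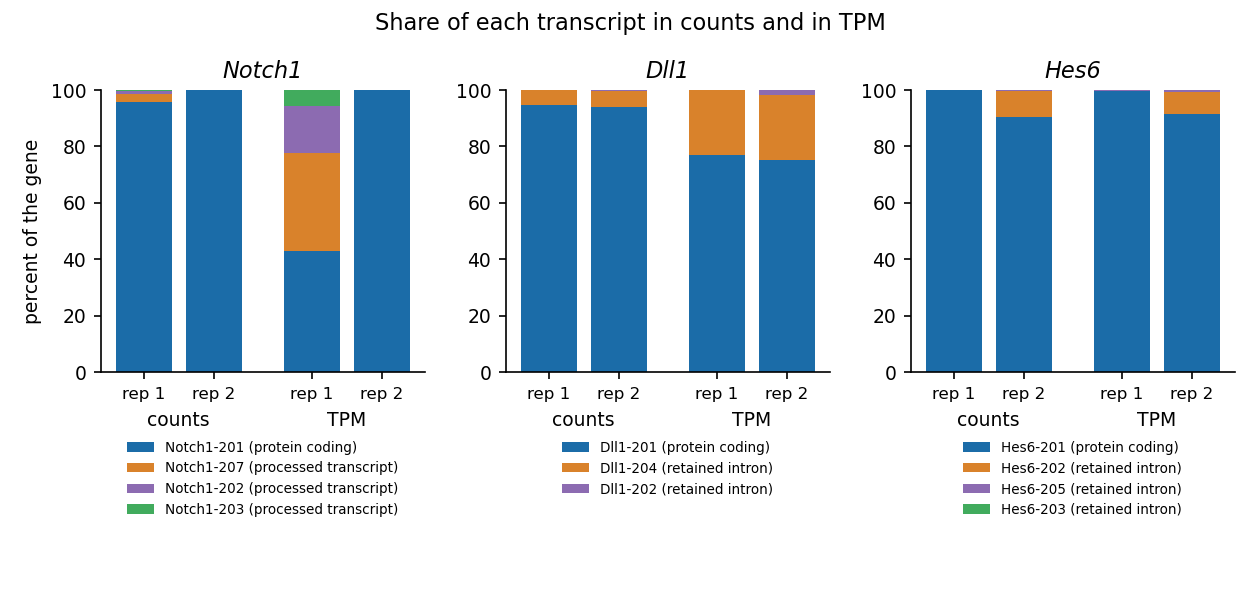
Percent of each gene's expected counts (left pair of bars) and TPM (right pair) by transcript, for Notch1, Dll1 and Hes6 in each library. Short non-coding transcripts of Notch1 are a thin band of counts, 4.22%, but 57.1% of TPM in replicate 1 and have 0 counts in replicate 2, while Dll1 is split alike in both libraries.

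Dll1 carried nearly all ligand TPM among these genes. Dll1 (ENSMUSG00000014773.9, chromosome 17, 15367354 to 15376872, minus strand), the Delta-like ligand raised in newborn neurons and in progenitors about to differentiate, had 35.4 TPM in replicate 1 and 67.9 TPM in replicate 2, from 2243 and 4183 counts. Its mean was 51.6 ± 23.0 TPM (SD, n = 2) and its log2 TPM difference was -0.92, which is short of 2-fold. In CPM, replicate 2 was 1.83 times replicate 1 (1.73 to 1.92). Dll1 made up 99% of the summed ligand TPM in replicate 1 and 94.2% in replicate 2. Dll1-201, its full-length transcript, held 77.1% of the gene's TPM in replicate 1 and 75.1% in replicate 2. The retained-intron transcript Dll1-204 (751 bases), whose 98 intronic bases are printed above, held 22.9% and 23.1%, from 118 and 227 counts. Unlike Notch1, Dll1 was split between its transcripts alike in the 2 libraries. A930024N18Rik, on the opposite strand, overlaps Dll1 and had 7.58 and 3.53 counts.

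Jag1 was below 1 TPM in replicate 1 and above it in replicate 2, and Dll3 was below it in both. Jag1 (ENSMUSG00000027276.7, chromosome 2, 137081456 to 137116644, minus strand), a Jagged ligand, had 0.19 TPM in replicate 1 and 4.19 TPM in replicate 2, from 24 and 512 counts. Its mean was 2.19 ± 2.83 TPM (SD, n = 2) and its log2 TPM difference was -2.13. In CPM, replicate 2 was 20.9 times replicate 1 (13.9 to 32.9), the largest ratio of the 9 genes read in both libraries, but at a mean TPM under 10 it was not among those counted as past 2-fold. Dll3 (ENSMUSG00000003436.11, chromosome 7, 28293553 to 28302238, minus strand), a Delta-like protein that does not activate receptors on neighbouring cells, had 2 counts in replicate 1, all in a retained-intron transcript, and 0 in replicate 2. By counting error alone, a count of 0 allows up to 3 counts, or 0.107 CPM in replicate 2. That bound does not cover RNA lost from so small an input. No fold is given for Dll3. Dll1 exceeded Jag1 in both libraries, 186-fold in replicate 1 and 16.2-fold in replicate 2.

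The target genes Hes1, Hes5 and Hey1 were each detected in both libraries, but which of them led differed. Hes5 (ENSMUSG00000048001.7, chromosome 4, 154960923 to 154962371, plus strand), a repressor of proneural genes used as a readout of Notch signalling in neural progenitors, had 24.7 TPM in replicate 1 and 104.5 TPM in replicate 2. These came from 644 and 2722 counts, and the mean was 64.6 ± 56.4 TPM (SD, n = 2). Replicate 2 was the higher library, with a log2 TPM difference of -2.04 and a CPM of 4.14 times that of replicate 1 (3.80 to 4.52), so Hes5 was past 2-fold. Gm20421, on the opposite strand, overlaps Hes5 over 756 bases and had 67.0 and 1.25 counts. With these added, the log2 CPM difference of Hes5 was -1.87.

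Hey1 lay the other way. Hey1 (ENSMUSG00000040289.4, chromosome 3, 8663359 to 8667256, minus strand), a Hes-related repressor, had 33.3 TPM in replicate 1 and 11.2 TPM in replicate 2, from 1728 and 575 counts. Its mean was 22.2 ± 15.7 TPM (SD, n = 2), its log2 TPM difference 1.5 and its CPM ratio 3.07 (2.79 to 3.38), so it was past 2-fold and higher in replicate 1. Hes1 (ENSMUSG00000022528.7, chromosome 16, 30064384 to 30067796, plus strand), the repressor whose level oscillates in neural progenitors, was the lowest of these target genes in both libraries. It had 9.20 TPM in replicate 1 and 5.01 TPM in replicate 2, from 282 and 152 counts, with a mean of 7.11 ± 2.96 TPM (SD, n = 2). Its log2 TPM difference was 0.76 and its CPM ratio was 1.90 (1.55 to 2.32), so Hes1 and Hey1 were both higher in replicate 1 and Hes5 in replicate 2.

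The target genes therefore differed in proportion as well as in level. Their summed TPM was 67.2 in replicate 1 and 121 in replicate 2. Hey1 was the largest part in replicate 1, at 49.5% against 9.25% in replicate 2. Hes5 held 36.8% in replicate 1 and 86.6% in replicate 2, and Hes1 held 13.7% and 4.15%. The TPM ratio of Hes5 to Hes1 was 2.69 in replicate 1 and 20.9 in replicate 2. Differences past 2-fold were common at these levels. They held for 42.9% of genes with means from 50 to under 100 TPM, where Hes5 lies. From 20 to under 50 TPM, where Hey1 lies, the share was 56.1%. The change in proportion is therefore not read as particular to the target genes.

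Hes6 had the highest mean TPM of the 10 genes. Hes6 (ENSMUSG00000067071.4, chromosome 1, 91411483 to 91414038, minus strand) is a Hes family member that is induced by proneural factors, promotes neuronal differentiation and opposes Hes1, and it is not counted here with the Notch targets. It had 66.2 TPM in replicate 1 and 169.4 TPM in replicate 2, from 1829 and 4705 counts. The mean was 117.8 ± 73.0 TPM (SD, n = 2), above 87.3% of the 11107 genes that averaged 1 TPM or more. Replicate 2 was higher, with a log2 TPM difference of -1.34 and a CPM of 2.52 times that of replicate 1 (2.39 to 2.66), so Hes6 was past 2-fold. Among genes with a mean TPM from 100 to under 200, 28.9% were. Its retained-intron transcript Hes6-202 had 0 counts in replicate 1 and 441 in replicate 2, where it held 7.96% of the TPM of the gene. Over protein-coding transcripts alone, Hes6 stood at 66.1 and 155 TPM, a log2 difference of -1.22. Hes6 exceeded Dll1, another gene raised by proneural factors, in both libraries, 1.87-fold in replicate 1 and 2.5-fold in replicate 2.

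Of the 10 Notch genes, 6 had a mean TPM of at least 10, and 4 of these (66.7%) were past 2-fold, Notch1 and Hey1 higher in replicate 1 and Hes5 and Hes6 higher in replicate 2. Over all 7680 genes at that level the share was 51.3%, so on 6 genes the count does not set the Notch genes apart. The median absolute log2 difference was 1.42 over the 6 genes and 1.04 over all 7680, and the median signed difference was -0.30 and -0.02. In each of the 8 genes detected in both libraries, the same transcript had the highest TPM in replicate 1 and in replicate 2, although for Notch1-201 in replicate 1 this was 42.9% of the TPM of the gene. Notch2 and Notch3 have only 1 transcript in the tables, so for them it could not be otherwise.

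**Figure D3:**
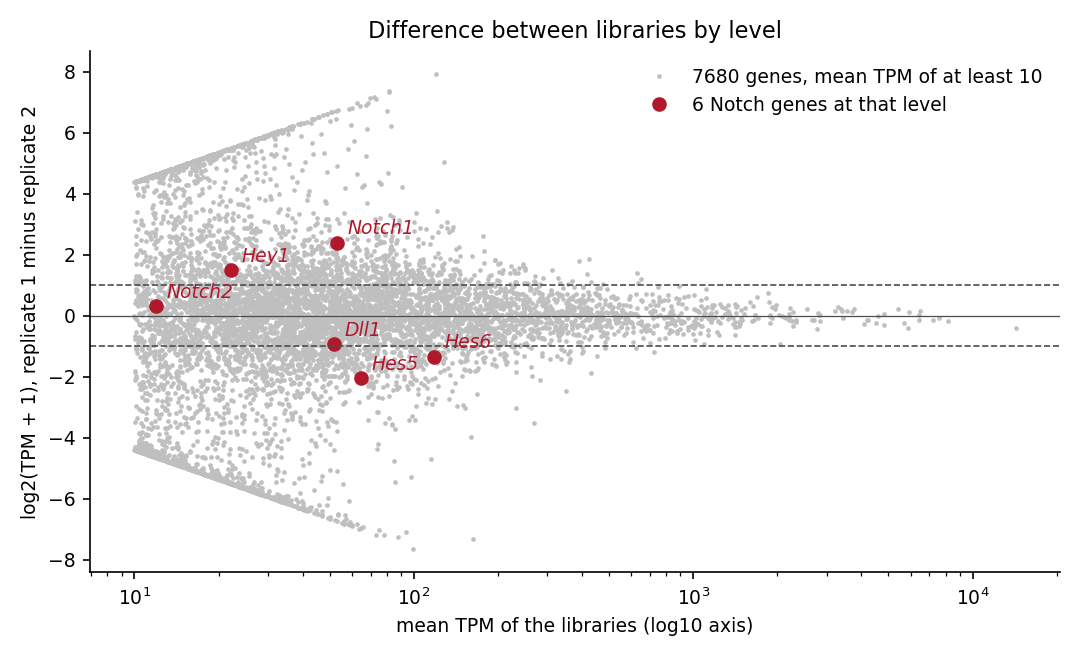
Log2(TPM + 1) difference, replicate 1 minus replicate 2, against mean TPM on a log10 axis, for 7680 genes (grey) and the 6 Notch genes averaging 10 TPM or more (red). Dashed lines mark 2-fold, and Notch1 and Hey1 lie above the upper line while Hes5 and Hes6 lie below the lower one, inside the spread of other genes at the same level.

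**Figure D4:**
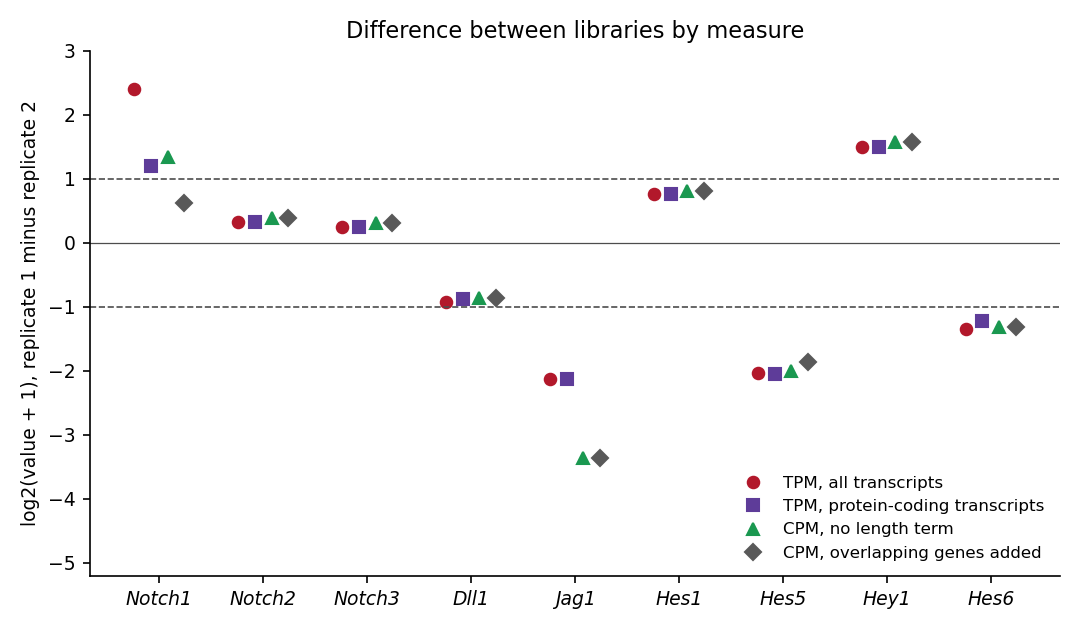
Log2 difference, replicate 1 minus replicate 2, of the 9 genes with reads in both libraries by 4 measures: TPM over all transcripts, TPM over protein-coding transcripts, CPM, and CPM with the counts of overlapping genes added. Notch1 moves from 2.4 to 0.62 across the measures and crosses the dashed 2-fold line, while Hes5, Hey1 and Hes6 stay beyond it.

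The promoter windows of RefSeq (300 bases, 250 before to 50 after the gene start) covered 8 of the 10 genes with 10 windows, and the other target genes, Hes1 and Hey1, were not analysed here. Of the 8 genes, Hes5 alone held TGGGAA, which reads TTCCCA on the other strand, with 2 matches, which begin 226 and 82 bases before the gene start, on opposite strands and 138 bases apart. Of all 32851 windows, 25.6% held at least 1 match and 3.79% held 2 or more. The longer GTGGGAA, which contains TGGGAA and was added after the data were seen, also matched at both places in Hes5, and 0.256% of windows held 2 or more of it. The E-box CANNTG, which proneural factors bind, was found in the windows of Hes5, Hes6, Dll1, Dll3 and Jag1, against 72.3% of all windows. The N-box CACNAG, read on both strands, which Hes proteins bind, was found in those of Notch1, Notch2, Notch3, Dll1 and Hes6, against 42.5%. A match is a description of letters and not of binding.

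The other parts of the pathway were taken from 8 lists of 65 genes. In both libraries 35 of the 65 were detected, with 5 more in replicate 1 alone, 6 in replicate 2 alone and 19 in neither, of which 15 had 0 counts in both. The shares to set beside this and beside each list below are 16.6% of all gene rows and 30.4% of protein-coding rows. Of 30 with a mean TPM of at least 10, 13 (43.3%, against 51.3% of all genes) were past 2-fold. Of the 13, 10 were higher in replicate 1 and 3 in replicate 2. Over all 7680 genes at that level, 24.7% were past 2-fold and higher in replicate 1, and 26.6% in replicate 2. The lean of these lists to replicate 1 was not tested.

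No further canonical receptor or ligand was detected. Notch4, Dll4 and Jag2 had 0 counts in both libraries. Notch4 and Dll4 are known from endothelium, and of 12 endothelial marker genes 5 were detected in both libraries. Pecam1 (19.7 and 0.02 TPM) and Tek (8.54 and 0.98 TPM) were detected in replicate 1 alone, and Flt1 (0 and 17.9 TPM) in replicate 2 alone. Cldn5, Emcn, Sox17 and Sox18 were at 0 in both. The 12 genes summed to 151 TPM in replicate 1 and 135 TPM in replicate 2, close sums that hide these differences. The atypical ligands Dlk1, at 19.6 and 22.8 TPM, and Dner, at 2.91 and 6.52 TPM, were detected in both. Of 6 other Hes and Hey family genes and Notch feedback genes, none was detected: Hes2, Hes3, Hes7, Hey2 and the feedback inhibitor Nrarp had 0 counts in both, and the sixth, Heyl, had 1 count in replicate 1. Hes5, Hey1, Hes1 and Hes6 were thus the only Hes and Hey genes detected among those listed.

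The nuclear machinery was detected for the most part, at 12 of 16 genes in both libraries. Rbpj, which recruits the cleaved receptor to DNA, had 29.1 TPM in replicate 1 and 13.4 TPM in replicate 2, a log2 difference of 1.07 that was past 2-fold. The deacetylase gene Hdac1 had 107.5 and 191 TPM, Snw1, whose product binds RBPJ complexes, 106.3 and 117 TPM, and the acetyltransferase gene Kat2a 49.8 and 57.3 TPM. These leading members were not past 2-fold. In the list, 6 of the 12 genes that averaged 10 TPM or more were past it (50%, against 51.3% of all genes). The share is close to that of all genes. Of the 6, 5 were higher in replicate 1, as were 24.7% of all genes at that level. Tle2 and Kat2b had 0 counts in both libraries.

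Ligand uptake and receptor glycosylation were each read from a few genes. Mib1, the ubiquitin ligase through which a Delta ligand is taken up by the sending cell, had 14.8 TPM in replicate 1 and 29.3 TPM in replicate 2. Its counts were 965 and 4401, a larger gap than in TPM. Neurl4 had 36.0 and 28.6 TPM, and Mib2, Neurl1a and Neurl1b had 0 counts in both. All 5 glycosylation genes were detected in both libraries. The Fringe genes, whose enzymes add sugar to Notch and alter its choice of ligand, were led by Mfng at 48.8 and 67.5 TPM, with Lfng at 1.39 and 2.44 TPM. Poglut1, a glucosyltransferase, had 65.9 and 47.2 TPM, and Pofut1, which adds O-fucose to Notch, had 52.9 and 10.7 TPM and was past 2-fold.

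For receptor cleavage, 5 of 10 genes were detected in both libraries, 2 in replicate 1 alone and 1 in replicate 2 alone. Of the gamma-secretase subunit genes, Psenen was nearly equal at 100 and 103.8 TPM. Ncstn, which encodes nicastrin, was not: it had 164.8 TPM in replicate 1 and 1.21 TPM in replicate 2, from 7180 and 78 counts. The log2 TPM difference of Ncstn was 6.23. Aph1c had 0 counts in both. Among antagonists and turnover genes, 4 of 9 were detected in both. Dtx3 had 76.4 and 32.5 TPM, the ubiquitin ligase gene Itch 15.7 and 32.5 TPM and Dtx4 3.56 and 18.9 TPM. These 3 were the only genes of the list with a mean TPM of at least 10. Each was past 2-fold, against 51.3% of all genes at that level, and Itch was at the limit, with a log2 difference of -1.003. Bend6 had 0 counts in both.

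On the other side of the Notch exchange, 5 of 8 proneural and neurogenic genes were detected in both libraries. Neurog2, the proneural gene of the dorsal forebrain, was close at 27.3 and 23.6 TPM. Btg2, an antiproliferative gene, had 95.7 and 104.6 TPM, Neurod1 33.9 and 54.5 TPM, and the growth-arrest gene Gadd45g 87.8 and 33.9 TPM. Of these only Gadd45g was past 2-fold, among the 4 members with a mean TPM of at least 10.

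**Figure D5:**
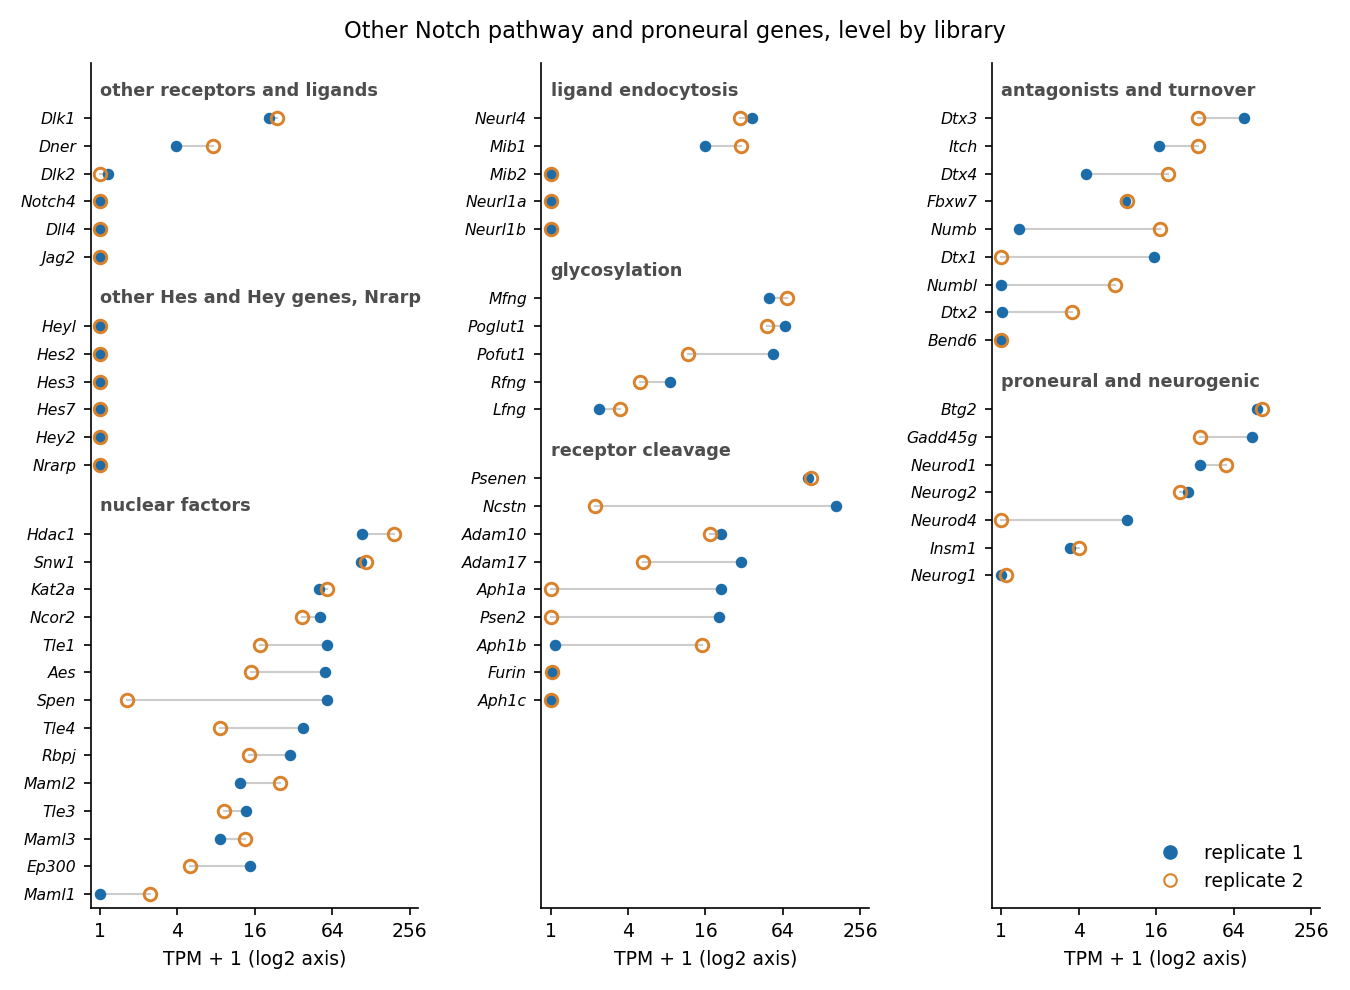
TPM + 1 on a log2 axis for other pathway and proneural genes by list, with replicate 1 as filled blue points and replicate 2 as open orange points joined by a line. Psenen, Snw1, Btg2 and Neurog2 nearly coincide. Ncstn, Aph1a and Psen2 were read almost in replicate 1 alone, and Aph1b, Numb and Numbl almost in replicate 2 alone.

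The forebrain label was set against marker genes. Of 10 progenitor markers 8 were detected in both libraries, with a summed TPM of 1486 in replicate 1 and 2611 in replicate 2, and of 10 neuron markers 8 were, at 1050 and 979. Most of the progenitor sum was Vim, with 741 TPM in replicate 1 and 1290 in replicate 2, and Fabp7, with 438 and 1010. Of the 3 progenitor markers past 2-fold, Fabp7 was higher in replicate 2, while Pax6 (85.6 and 30.1 TPM) and Prom1 (81.1 and 36.7 TPM) were higher in replicate 1, so these markers had no common direction. Of 8 neuron markers averaging 10 TPM or more, 4 were past 2-fold. Mapt (111.0 and 42.8 TPM) was higher in replicate 1. The other 3, with Dcx (16.1 and 95.6 TPM) among them, were higher in replicate 2. The close sums of the neuron markers thus hide members that differed in opposite directions. Markers of other cell types were read too. Of 8 erythroid markers 6 were detected in both, at 31193 and 37331 TPM. Of 13 mural and mesenchyme markers 4 were, and the 13 summed to 448 and 305. The largest parts were Lum (169.2 and 62.7 TPM), Col3a1 (85.8 and 117.0 TPM) and Col1a1 (66.1 and 70.3 TPM), and Tagln had 57.2 and 31.6 TPM. Rgs5, Abcc9, Cspg4 and Kcnj8 were among 5 detected in neither library, with Cspg4 and Kcnj8 at 0 in both. The sum joins mural and mesenchyme genes, so it does not give the level of mural cells, in which Notch3 is also known. Of 7 surface ectoderm markers 2 were detected in both, and their sums were 89.0 and 15.5. Their part in the levels of the Notch genes was not tested.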

How the data were processed

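RNA of E11.5 forebrain was read in 2 libraries of one group. The authors deposited expected counts (estimated reads per gene and transcript), TPM and FPKM, with posterior means, per the file headers. The percent of a gene's TPM in each transcript is in the deposited transcript tables, as are TPM interval limits, which were read as a score because the deposited text does not state their coverage. Length is deposited in bases. The text deposited with the tables names mm10 and annotation M4. Neither the aligner and quantifier nor the use of strand is given in the sources used here.

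Symbols and coordinates came from GENCODE M21 on the same assembly, by gene ID, for 42462 of 43346 gene rows (98.0%). Counts outside gene rows (spike-ins and others), 4.35% and 3.35%, were left out of CPM. Counts were rounded for ratios, whose intervals are exact conditional binomial intervals. The pseudocount was 1 TPM. The labels number the libraries as biological replicates from separate pools. The members and lists were chosen with earlier results of these data known. Of each list the text names the 3 detected genes of highest mean TPM, any at 0 counts in both libraries, and Rbpj, Mib1, Lfng, Neurog2, Dll4 and Notch4. A few genes that this rule names are not reported here. Heyl, Aph1a, Aph1b, Psen2, Numb and Numbl were named after their values were seen. Alternatives covered pseudocount, detection level, filter, scaling, posterior means and each library alone. Alternatives chosen after seeing the data were protein-coding transcripts alone, overlapping genes added and the longer motif. Checks on simulated data covered the 2-fold count. A planned comparison of Hes and Hey proteins was not made. Python 3.11.15, numpy 2.4.6, pandas 2.3.3, scipy 1.17.1 and matplotlib 3.10.9 were used.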

Additional observations from a re-analysis of the deposited data

How the results depend on the processing

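No paired analysis was possible because the samples form one group. The number of Notch genes past 2-fold was 4 under each planned pseudocount and scaling, 5 with no filter on TPM and 3 with overlapping genes added, when Notch1 was lost. Of 80 alternative log2 differences, 66 were classed as the same as the main value, 14 as moved and 0 as reversed. The class does not mean that a value lay inside the interval of the CPM ratio. Dll3 had no upper limit of that ratio, and its alternatives, from 0.000 to 1.379, were all classed as the same. Notch1 ranged from 0.62 to 2.46 and Jag1 from -3.89 to -0.82. Other pathway genes past 2-fold numbered 24 with no filter on TPM, against 13. They numbered 10 with a pseudocount of 5, 11 with spike-ins left out of TPM and 12 by posterior mean TPM. The mean TPM of Dll3 was 0.225 by posterior mean, against 0.08. From a single library, 5 to 8 of the 10 genes kept their rank, 8 to 9 were detected, and 40 to 41 other pathway genes were. Counts past 2-fold need both libraries and have no value with one left out. The input of 1 cell-equivalent limits all levels, so a count of 0 in a library does not show absence from the tissue.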
